A study of Rattus norvegicus with 36 samples.

Results

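The nuclear receptors of the hepatocyte examined here are 8 genes: Nr1i2 (the pregnane X receptor, PXR), Nr1i3 (the constitutive androstane receptor, CAR), Rxra (the retinoid X receptor alpha), Hnf4a (hepatocyte nuclear factor 4 alpha), Nr3c1 (the glucocorticoid receptor), Nr1h3 (the liver X receptor alpha, LXR), Nr5a2 (the liver receptor homolog LRH-1) and Esr1 (the estrogen receptor alpha). They were chosen by gene symbol, and every probe set that the platform annotation assigns to one of these symbols was taken. That gave 13 of the 31042 probe sets tested, for 8 of the 14217 genes named on the array. Nr1i2, Nr1i3, Rxra, Nr1h3 and Esr1 have a single probe set each, Nr3c1 has 2, and Hnf4a and Nr5a2 have 3 each.

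The study measured RNA from the left liver lobe of male Harlan Sprague Dawley rats, 7 weeks old at the start, on 36 Affymetrix 3' expression arrays. PBDE47, the tetrabrominated diphenyl ether 2,2',4,4'-tetrabromodiphenyl ether, a flame retardant, was given by gavage in corn oil at 5 ml/kg once a day for 5 days. The 6 groups of 6 arrays received corn oil alone (vehicle, dose 0) or a daily PBDE47 dose of 0.0485 mg/kg, 0.485 mg/kg, 4.85 mg/kg, 48.5 mg/kg or 485 mg/kg, and livers were taken a day after the last dose. The labels number the replicates from 1 to 6 within a group but do not identify the animals, so the p-values measure the spread between these samples.

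Nuclear receptors are transcription factors with a DNA-binding domain and a pocket for small lipophilic ligands. CAR and PXR sense drugs and pollutants, pair with RXR alpha on DNA, and switch on genes for oxidation, conjugation and export. The glucocorticoid receptor waits in the cytosol with chaperones until it binds cortisol-like hormones, and in liver it drives genes of the fasting response. LXR alpha senses oxysterols, LRH-1 supports bile acid and cholesterol genes, and HNF4 alpha maintains the hepatocyte programme. Because the activity of most of these receptors is set by ligands, their own messenger levels, which are measured here, are a different quantity from their activity.

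The start regions of the receptors that moved most are shown first, because the letters differ visibly between them. RefSeq on the GRCr8 rat assembly gives 2 start windows for Nr3c1 and 1 for Nr1i3, each of 300 bases from 250 before to 50 after a transcription start. CG dinucleotides are in capitals. The first Nr3c1 window is chr18:31614170-31614469 on the minus strand, the second is chr18:31613390-31613689 on the minus strand, and the Nr1i3 window is chr13:86165170-86165469 on the plus strand.
Nr3c1 window 1: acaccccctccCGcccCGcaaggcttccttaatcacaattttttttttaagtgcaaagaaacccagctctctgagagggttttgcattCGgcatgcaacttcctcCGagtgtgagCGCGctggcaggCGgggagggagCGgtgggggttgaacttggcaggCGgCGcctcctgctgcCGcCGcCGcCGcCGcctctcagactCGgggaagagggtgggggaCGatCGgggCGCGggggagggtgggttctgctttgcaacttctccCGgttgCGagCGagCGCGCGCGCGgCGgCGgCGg
Nr3c1 window 2: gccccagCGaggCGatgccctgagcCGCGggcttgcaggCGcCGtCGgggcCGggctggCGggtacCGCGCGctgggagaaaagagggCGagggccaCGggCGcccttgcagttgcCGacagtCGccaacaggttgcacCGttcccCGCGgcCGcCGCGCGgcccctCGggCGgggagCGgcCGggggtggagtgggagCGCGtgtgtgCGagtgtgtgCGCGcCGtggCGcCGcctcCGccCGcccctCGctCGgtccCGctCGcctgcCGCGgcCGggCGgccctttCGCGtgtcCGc
Nr1i3 window: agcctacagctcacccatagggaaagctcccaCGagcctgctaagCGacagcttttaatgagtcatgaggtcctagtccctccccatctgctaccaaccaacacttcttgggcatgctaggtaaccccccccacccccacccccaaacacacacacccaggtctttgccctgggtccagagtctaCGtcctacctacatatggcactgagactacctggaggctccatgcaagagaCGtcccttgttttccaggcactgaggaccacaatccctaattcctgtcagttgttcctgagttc
The Nr3c1 windows held 31 and 49 CG dinucleotides, with 66% and 79% G and C. The Rxra window held more than either, 62, with 84.7% G and C, and Rxra was not called at any dose. The Nr1i3 window held 4, with 54.7% G and C, and the median over the 33469 RefSeq windows of the same length was 51.7%. All 8 receptors matched the table, with 10 windows in all. The receptor half-site AGGTCA and the steroid receptor half-site AGAACA were searched on both strands; they occurred in 16.2% and 20.7% of all windows. AGGTCA was found at 2 places in the Nr5a2 window, and AGAACA at 1 place in the Nr1i2 window, so no hits overlapped. The windows of the other 6 receptors held neither, which says only that these letters are not in these stretches.

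All values are log2 RMA values on a scale shared by the 36 arrays. Each change is a log2 difference, dose minus vehicle. Its standard error (SE) comes from limma over all 36 arrays, 6 per group. Adjusted p-values are Benjamini-Hochberg values from limma over all 31042 probe sets, and a probe set is called when this value is below 0.05. Array medians ran from 5.31 to 5.38, and no detection call was made, so levels below 5.31 are dim and folds there are not exact. Arrays of one group correlated at 0.990 to 0.997 across probe sets. The array of replicate 6 at 4.85 mg/kg stood farthest from its group, and leaving it out changed no count of receptor probe sets called.

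The liver label was checked against hepatocyte markers. Each of the 8 markers measured averaged 13.47 or more over the 36 arrays, and their summed linear signal was 140817 to 143722 at 485 mg/kg, against 156764 to 161563 in vehicle. At 485 mg/kg 5 of these 8 were called lower and none higher. For this count and the marker counts below, 9.43% of named genes were called lower at that dose and 11.5% higher. Of the Kupffer cell and macrophage markers 4 of 7 were called lower, with summed signals of 2703 to 4001 at 485 mg/kg and 4382 to 5692 in vehicle. Markers of periportal hepatocytes were called lower for 5 of 7, of pericentral hepatocytes for 2 of 7, of sinusoidal endothelium for 2 of 6, of T and NK cells for 2 of 7 and of erythroid cells for 2 of 2. None of 8 stellate cell or 3 B cell markers was called, and 1 of 5 cholangiocyte markers was called higher. In whole liver RNA, fewer cells of a type and less RNA per cell cannot be told apart, and the part of these shifts in the receptor values was not tested.

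Of the 8 receptors, Nr3c1 was called lower at the upper doses, and the messengers of the other 7 did not pass the test at any dose. At 485 mg/kg 2 of the 13 receptor probe sets were called, both lower and both of Nr3c1, which is 15.4% of them. In all, 15.0% of probe sets were called in that comparison (7.81% higher and 7.22% lower), so the share of receptors called in either direction is at the background and is no result about them as a set. The next dose, 48.5 mg/kg, gave 1 call of 13, the brighter Nr3c1 probe set, against 3.39% of all probe sets (2.57% higher and 0.821% lower). None was called at 4.85 mg/kg, where 0.0193% of all probe sets were, or at 0.485 and 0.0485 mg/kg, where 0% were. At unadjusted p-values under 0.05 limma counted 7 of 13 receptor probe sets at 485 mg/kg, beside 25.9% of all probe sets, and 4 of 13 at 48.5 mg/kg, beside 15.5%. It counted 4 of 13 at both 4.85 and 0.485 mg/kg, beside 6.46% and 4.45%, and 1 of 13 at 0.0485 mg/kg, beside 4.89%. Between 485 and 48.5 mg/kg none was called, while 4.86% of all probe sets were (2.55% higher and 2.31% lower at 485 mg/kg), and 0 of 13 had an unadjusted p-value under 0.05, against 15.8% of all probe sets. The median log2 change of the 13 was -0.02 at 485 mg/kg, beside -0.01 over all probe sets. A moderated F test over the 5 doses together called 1 of 13, the brighter Nr3c1 probe set (adjusted p = 0.000742), against 13.0% of all probe sets, and gave the rest adjusted p-values from 0.0524 to 0.941.

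**Figure D1:**
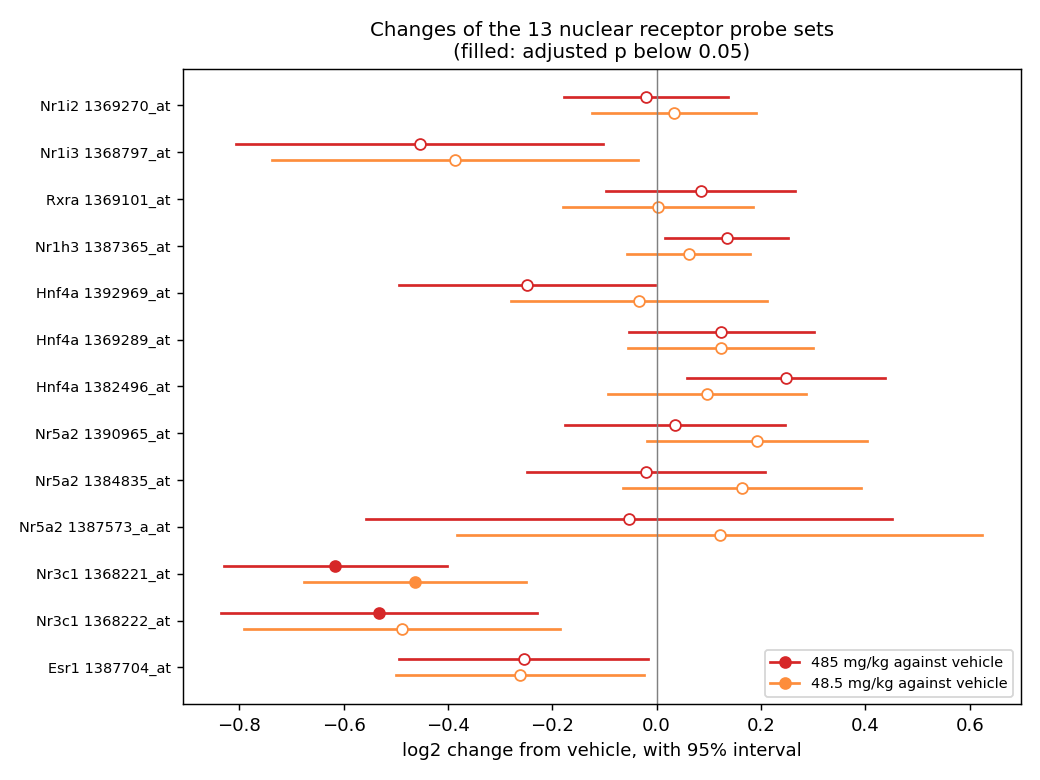
Log2 change from vehicle (x axis) of each of the 13 nuclear receptor probe sets, with its 95% interval from limma, at 485 mg/kg (red) and 48.5 mg/kg (orange), 6 arrays per group; filled points were called at an adjusted p below 0.05. The Nr3c1 rows carry the 3 filled points, at -0.62, -0.53 and -0.46, and most other intervals span 0.

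The glucocorticoid receptor gave the clearest change. Probe set 1368221_at of Nr3c1 averaged 9.85 ± 0.34 in vehicle, 9.63 ± 0.13 at 0.0485 mg/kg, 9.57 ± 0.10 at 0.485, 9.53 ± 0.17 at 4.85, 9.38 ± 0.14 at 48.5 and 9.23 ± 0.16 at 485 mg/kg (SD, n = 6 each). The means thus stood lower at each higher dose, although every single step was smaller than the larger SD of the pair of groups. At 485 mg/kg the lowest, median and highest arrays were 8.99, 9.26 and 9.40, against 9.49, 9.79 and 10.40 in vehicle. The groups did not overlap, as also held for 7.33% of all probe sets in that comparison (3.03% with the dosed group lower). The log2 change was -0.62 ± 0.10 SE (95% interval -0.83 to -0.40, 1.53-fold lower, adjusted p = 3.65e-05), and all 6 arrays lay below the vehicle range.

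Nr3c1 by the same probe set ran at 48.5 mg/kg from 9.19 over a median of 9.42 to 9.52. The groups overlapped there, with 4 of 6 arrays below the lowest vehicle array, while 2.20% of all probe sets did not overlap (0.677% lower). The log2 change was -0.46 ± 0.10 SE (1.38-fold lower, adjusted p = 0.00762), and it was no longer called when the 12 arrays of the pair were fitted alone (adjusted p = 0.0791). The change of -0.32 at 4.85 mg/kg was not called (adjusted p = 0.541), nor was that of -0.27 for the 0.485 mg/kg group or of -0.22 for the 0.0485 mg/kg group (adjusted p = 1.00 for both), although all 6 arrays of each of these groups lay below the vehicle mean. The direct difference of 485 from 48.5 mg/kg was -0.15 ± 0.10 SE (adjusted p = 0.538). Vehicle replicate 6, at 10.40, stood highest of all 36 arrays. Without it the change was -0.50 at 485 mg/kg (adjusted p = 0.000120) and -0.35 at 48.5 mg/kg (adjusted p = 0.0251).

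The second Nr3c1 probe set, 1368222_at, is dim: its values lay below the lowest array median of 5.31 in 34 of 36 arrays. Nr3c1 by this probe set ran from 4.09 over a median of 4.47 to 4.91 at 485 mg/kg, against 4.69, 4.94 and 5.52 in vehicle. These groups overlapped, with 4 of 6 dosed arrays below the vehicle range and all 6 below the vehicle mean. The log2 change was -0.53 ± 0.15 SE (adjusted p = 0.0110), the same direction as that of the brighter probe set. For 48.5 mg/kg it was -0.49 ± 0.15 SE (adjusted p = 0.0612), and it was called there without vehicle replicate 1 (adjusted p = 0.0426), vehicle replicate 2 (0.0418) or 48.5 mg/kg replicate 4 (0.0287), or when both Nr3c1 probe sets were averaged (0.00956). Over the 36 arrays, which include the shift with dose, the 2 probe sets correlated at r = 0.69, and within groups at 0.48.

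**Figure D2:**
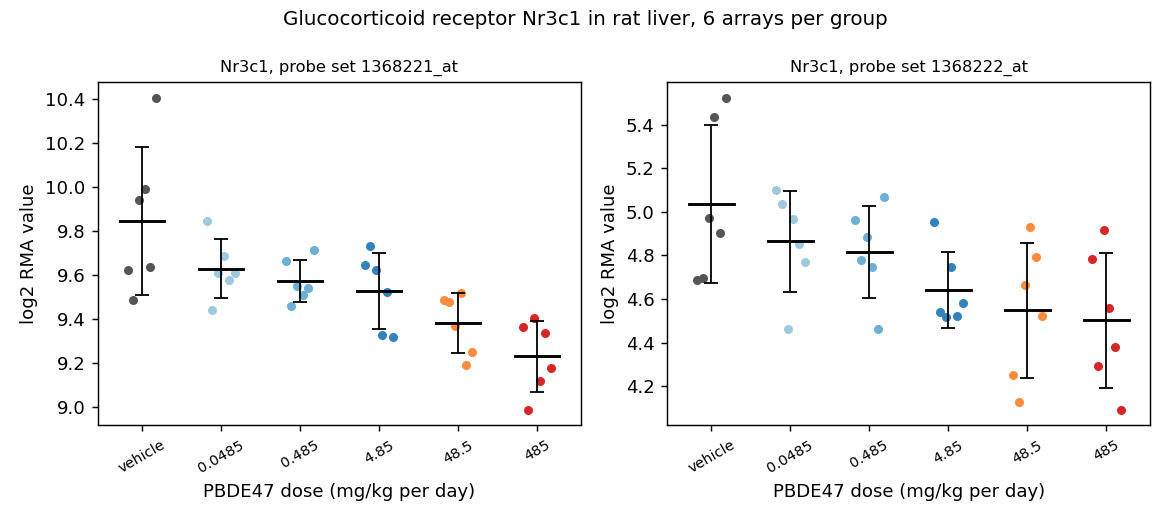
Log2 RMA values (y axis) of both Nr3c1 probe sets by PBDE47 dose in mg/kg per day (x axis), 1 point per array, 6 per group; bars are group means and whiskers 1 SD. On the left, the 485 mg/kg arrays (8.99 to 9.40) all lie below the vehicle arrays (9.49 to 10.40), and on the right, where all levels are dim, the ranges overlap.

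The chaperones that hold the unliganded glucocorticoid receptor and CAR in the cytosol were higher where they were called. Of 12 measured chaperone genes, 5 were called higher at 485 mg/kg and none lower, where 11.5% of named genes were called higher. The largest rises were those of Ahsa1, which stimulates the HSP90 ATPase (log2 change 0.47 ± 0.07 SE, adjusted p = 6.07e-06), and St13, an HSP70-interacting cochaperone (0.40 ± 0.05, adjusted p = 2.19e-07). Hsp90ab1, the constitutive cytosolic HSP90, averaged 12.64 ± 0.12 at 485 mg/kg and 12.26 ± 0.08 in vehicle (SD, n = 6 each; 0.38 ± 0.06 SE, adjusted p = 3.35e-05). Stip1, which links HSP70 to HSP90, rose by 0.37 ± 0.10 SE (adjusted p = 0.00841; 0.0710 in the fit of 12 arrays). At 48.5 mg/kg 1 of 12 was called higher, beside 4.03% of named genes. It was St13, higher by 0.19 ± 0.05 SE (adjusted p = 0.0347). That call was lost without any of vehicle replicates 1, 2, 3 and 5 or 48.5 mg/kg replicates 1, 3 and 6 (adjusted p = 0.0538 to 0.0942), and in the fit of 12 arrays (0.0974).

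Known glucocorticoid receptor targets were lower where they were called. Of 14 measured, 4 were called lower at 485 mg/kg and none higher, beside 9.43% of named genes called lower, and the list's median log2 change was -0.31 against -0.01 for all named genes. Sgk1, a hormone-induced kinase, averaged 8.73 ± 0.26 at 485 mg/kg and 10.70 ± 0.24 in vehicle (SD, n = 6 each), with no overlap of the groups (log2 change -1.97 ± 0.29 SE, adjusted p = 4.15e-06). Igfbp1, a fasting-induced binder of insulin-like growth factors, averaged 7.66 ± 1.64 at 485 mg/kg and 9.61 ± 0.52 in vehicle (-1.95 ± 0.50 SE, adjusted p = 0.00514). Pck1, the gluconeogenic enzyme also counted as periportal marker, changed by -1.36 ± 0.23 SE (adjusted p = 3.19e-05), and Klf9, a transcription factor, by -0.63 ± 0.16 SE (adjusted p = 0.00530). The other 10, among them Nr1i3 itself, were not called. Sgk1 alone, 1 of 14, was called lower at 48.5 mg/kg (-1.16 ± 0.29 SE, adjusted p = 0.0186), where 5.11% of named genes were called (1.08% lower); without 48.5 mg/kg replicate 3, 4 or 5 its adjusted p was 0.0521, 0.0505 and 0.0585. None was called at the lower doses.

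CAR, the receptor most tied to phenobarbital-type induction, did not pass the test, and its values spread widely. Nr1i3 ran from 7.57 over a median of 7.94 to 8.57 at 485 mg/kg, and from 8.23 over 8.44 to 8.72 in vehicle. The groups overlapped, with 4 of 6 dosed arrays below the vehicle range. The log2 change was -0.45 ± 0.17 SE (95% interval -0.81 to -0.10, adjusted p = 0.0732). It was called without 485 mg/kg replicate 2 (adjusted p = 0.0235) or 3 (0.0442), and when only brighter probe sets were tested (0.0469). Nr1i3 at 48.5 mg/kg ran from 7.66 to 8.26 with a median of 8.16, with 5 of 6 arrays below the vehicle range (-0.39 ± 0.17 SE, adjusted p = 0.260). The means had no order of dose: 8.47 ± 0.24 in vehicle, 8.40 ± 0.16 at 0.0485, 8.07 ± 0.54 at 0.485, 8.35 ± 0.17 at 4.85, 8.08 ± 0.22 at 48.5 and 8.01 ± 0.41 at 485 mg/kg (SD, n = 6 each). At 0.485 mg/kg 3 of 6 arrays lay below the vehicle range, and 1 of them, at 7.38, was the lowest of all 36. The residual SD of Nr1i3, 0.32, was larger than that of 96.9% of all probe sets.

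PXR gave no call at any dose. Nr1i2 ran from 8.63 over a median of 8.71 to 8.94 at 485 mg/kg, against 8.64, 8.77 and 8.97 in vehicle, and the groups overlapped over nearly their whole ranges. The log2 change was -0.02 ± 0.08 SE, and its 95% interval of -0.18 to 0.14 corresponds to 0.884 to 1.10 times the vehicle level. At the other doses the change was between 0.02 and 0.13, the last at 0.0485 mg/kg, and none was called. Rxra, the partner of CAR, PXR and LXR alpha, likewise showed no call. It ran from 6.69 over 6.88 to 7.20 at 485 mg/kg and from 6.54 over 6.81 to 7.16 in vehicle (0.08 ± 0.09 SE, 95% interval -0.10 to 0.27, adjusted p = 0.626), and its changes at the lower doses lay between -0.01 and 0.06.

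The targets of CAR and PXR rose together, while neither receptor's own messenger was called. Of 21 measured, 19 were called higher at 485 mg/kg and none lower (11.5% of named genes were called higher), with a median log2 change of 1.45. The 48.5 mg/kg dose gave 15 of 21 called higher (4.03% of named genes), with a median of 0.83. At 4.85 mg/kg 5 of 21 genes were called higher, while 6 of all 31042 probe sets were (0.0193%, a share of probe sets and not of genes). The lists, this one among them, were chosen with earlier results of these data known, so these counts are not an independent test. Ces2c, a carboxylesterase, averaged 11.87 ± 0.37 at 485 mg/kg and 7.66 ± 0.14 in vehicle (SD, n = 6 each; log2 change 4.21 ± 0.13 SE, 18.5-fold, adjusted p = 4.98e-23). Abcc3, an export pump for conjugates, changed by 4.55 ± 0.15 SE at 485 mg/kg and 3.27 ± 0.15 at 48.5 mg/kg, and since its vehicle mean of 5.27 is dim its fold may be larger than these values give. Gsta3, a glutathione transferase, changed by 3.79 ± 0.17 SE at 485 mg/kg (adjusted p = 1.18e-18). Akr1b7, an aldo-keto reductase, was uneven at 485 mg/kg, from 3.58 to 9.18, against 3.05 to 3.93 in vehicle (2.72 ± 0.53 SE, adjusted p = 0.000253). All its vehicle values are dim, below 5.31, and so is at least the lowest dosed value, so the size of that change is not exact.

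LXR alpha showed a slight upward difference that was not called. Nr1h3 ran from 10.00 over a median of 10.07 to 10.26 at 485 mg/kg, against 9.87, 9.97 and 10.02 in vehicle. The groups overlapped by a single dosed array, as 5 of 6 lay above the vehicle range. The log2 change was 0.13 ± 0.06 SE (95% interval 0.02 to 0.25, adjusted p = 0.129), and at the lower doses it was 0.03 to 0.06. Of 12 measured LXR targets, 6 were called lower at 485 mg/kg and none higher, beside 9.43% of named genes lower. Abcg8 and Abcg5, the paired transporters that send sterols into bile, changed by -2.22 ± 0.27 SE (adjusted p = 8.50e-08) and -2.00 ± 0.27 SE (adjusted p = 5.12e-07), with the Abcg8 mean of 4.80 at 485 mg/kg dim. Abca1, the cholesterol efflux pump, changed by -0.82 ± 0.27 SE (adjusted p = 0.0315), and Srebf1, the regulator of fatty acid synthesis, by -0.56 ± 0.20 SE (adjusted p = 0.0453). The Abca1 call was lost without vehicle replicate 1, 4, 5 or 6 or 485 mg/kg replicate 2, 3, 4 or 6 (adjusted p = 0.0503 to 0.0936), and with the ordinary test (0.0520) or trend and robust eBayes (0.0506). The Srebf1 call was lost without vehicle replicate 2, 3, 4 or 6 or 485 mg/kg replicate 2, 3 or 4 (adjusted p = 0.0503 to 0.184). It was also lost with median centring (0.0584), the ordinary test (0.0683), trend and robust eBayes (0.0657), array quality weights (0.0505) and the fit of 12 arrays (0.164). In the 48.5 mg/kg group 3 of 12 were called lower, beside 1.08% of named genes. Among them were Scd, the stearoyl-CoA desaturase (-1.61 ± 0.45 SE, adjusted p = 0.0347), and Abcg8 (-0.96 ± 0.27 SE, adjusted p = 0.0366). The Scd call was lost without vehicle replicate 3, 5 or 6 or 48.5 mg/kg replicate 1, 2, 3 or 6, and the Abcg8 call without any vehicle replicate except 5 or without 48.5 mg/kg replicate 2, 5 or 6 (adjusted p = 0.0589 to 0.140 for Abcg8). Both were also lost with the ordinary test (0.0582 for Scd, 0.0597 for Abcg8) and with trend and robust eBayes (0.0567 for each), and Abcg8 with array quality weights (0.0563) and in the fit of 12 arrays (0.0722). The count of LXR targets called lower at this dose ran from 0 to 3 over the alternatives.

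LRH-1 showed no call by any of its 3 probe sets. Nr5a2 by its brightest, 1390965_at, ran from 8.51 over a median of 8.73 to 8.98 at 485 mg/kg, against 8.53, 8.68 and 9.08 in vehicle (0.04 ± 0.10 SE, 95% interval -0.18 to 0.25, adjusted p = 0.887). The means of this probe set were highest in the middle of the dose range: 8.72 in vehicle, 8.90 at 0.0485, 8.95 at 0.485, 8.98 at 4.85, 8.91 at 48.5 and 8.75 at 485 mg/kg. The group SDs of 0.16 to 0.22 were of the size of these differences, and the largest change, 0.27 ± 0.10 SE at 4.85 mg/kg, had an adjusted p of 0.618. The probe sets 1384835_at and 1387573_a_at of Nr5a2 changed by -0.02 and -0.05 at 485 mg/kg. At 4.85 mg/kg they changed by 0.04 and -0.22, and neither had its highest mean there. They correlated at r = 0.87 with each other over the 36 arrays, and with 1390965_at at 0.61 and 0.38. Probe set 1387573_a_at stood at 5.98 in replicate 6 at 4.85 mg/kg, the array farthest from its group, while the other 5 arrays of that group ran from 7.62 upward. Of 8 measured LRH-1 targets 5 were called lower at 485 mg/kg and none higher, beside 9.43% of named genes called lower, and 3 of the 8 are also on the LXR list. Beside Abcg5 and Abcg8, these included Cyp8b1, the sterol 12-alpha-hydroxylase of bile acid synthesis (-0.99 ± 0.20 SE, adjusted p = 0.000481), and Scarb1, the HDL receptor (-0.35 ± 0.07 SE, adjusted p = 0.000702). For 48.5 mg/kg 2 of 8 were called lower, beside 1.08% of named genes: Abcg8 and Abcg5 (-0.92 ± 0.27 SE for Abcg5, adjusted p = 0.0451). The Abcg5 call was lost without any vehicle replicate except 5 or without 48.5 mg/kg replicate 2, 3, 5 or 6 (adjusted p = 0.0636 to 0.156). It was also lost with all arrays kept: with the replicate block (0.0542), the ordinary test (0.0714), trend and robust eBayes (0.0692), array quality weights (0.0623) and the fit of 12 arrays (0.0677).

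The 3 Hnf4a probe sets differed in direction. The brightest, 1392969_at, ran from 11.60 over a median of 11.82 to 12.23 at 485 mg/kg, against 11.71, 12.13 and 12.49 in vehicle (-0.25 ± 0.12 SE, adjusted p = 0.187). Probe set 1382496_at ran the other way, from 7.79 over 8.10 to 8.47 at 485 mg/kg against 7.60, 7.93 and 8.00 in vehicle, with 4 of 6 dosed arrays above the vehicle range (0.25 ± 0.09 SE, adjusted p = 0.0690). The third, 1369289_at, changed by 0.12 ± 0.09 SE (adjusted p = 0.414). None was called, and the direction of Hnf4a depends on the probe set. Probe set 1382496_at was called in some alternatives: with the replicate block (adjusted p = 0.0276), among brighter probe sets only (0.0413), and without 485 mg/kg replicate 2 (0.0179) or 5 (0.0498). Over the 36 arrays it correlated at r = 0.83 with 1369289_at and at -0.07 with 1392969_at, while 1369289_at and 1392969_at correlated at 0.30. Of 11 measured HNF4 alpha targets, 4 were called lower and 1 higher at 485 mg/kg, beside 9.43% of named genes lower and 11.5% higher, and none at 48.5 mg/kg. The lower count ran from 3 to 7 over the alternatives, with 7 among brighter probe sets only and with trend and robust eBayes. Apart from Cyp8b1 these were small shifts of abundant messengers: Serpina1, the antitrypsin gene and also one of the hepatocyte markers, changed by -0.25 ± 0.03 SE (adjusted p = 7.78e-07), F9, coagulation factor IX, by -0.24 ± 0.05 SE (adjusted p = 0.000849), and Mttp, which loads lipid onto lipoproteins, by 0.27 ± 0.06 SE (adjusted p = 0.000525).

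The estrogen receptor was dim on this array. All 36 values of Esr1 lay below 5.31. It ran from 3.67 over a median of 3.82 to 4.01 at 485 mg/kg, against 3.90, 4.06 and 4.54 in vehicle (-0.25 ± 0.12 SE, adjusted p = 0.157), with 4 of 6 dosed arrays below the vehicle range. The highest vehicle array, replicate 3, stood apart at 4.54, and without a detection call these values set no firm level. Of 7 measured estrogen receptor targets only Ctsd, the lysosomal protease cathepsin D, was called, higher at 485 mg/kg (0.52 ± 0.05 SE, adjusted p = 1.65e-09) and at 48.5 mg/kg (0.26 ± 0.05 SE, adjusted p = 0.00272; 0.0508 in the fit of 12 arrays). Of all named genes 11.5% were called higher at 485 mg/kg and 4.03% at 48.5 mg/kg, so 1 of 7 is no result about this list.

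**Figure D3:**
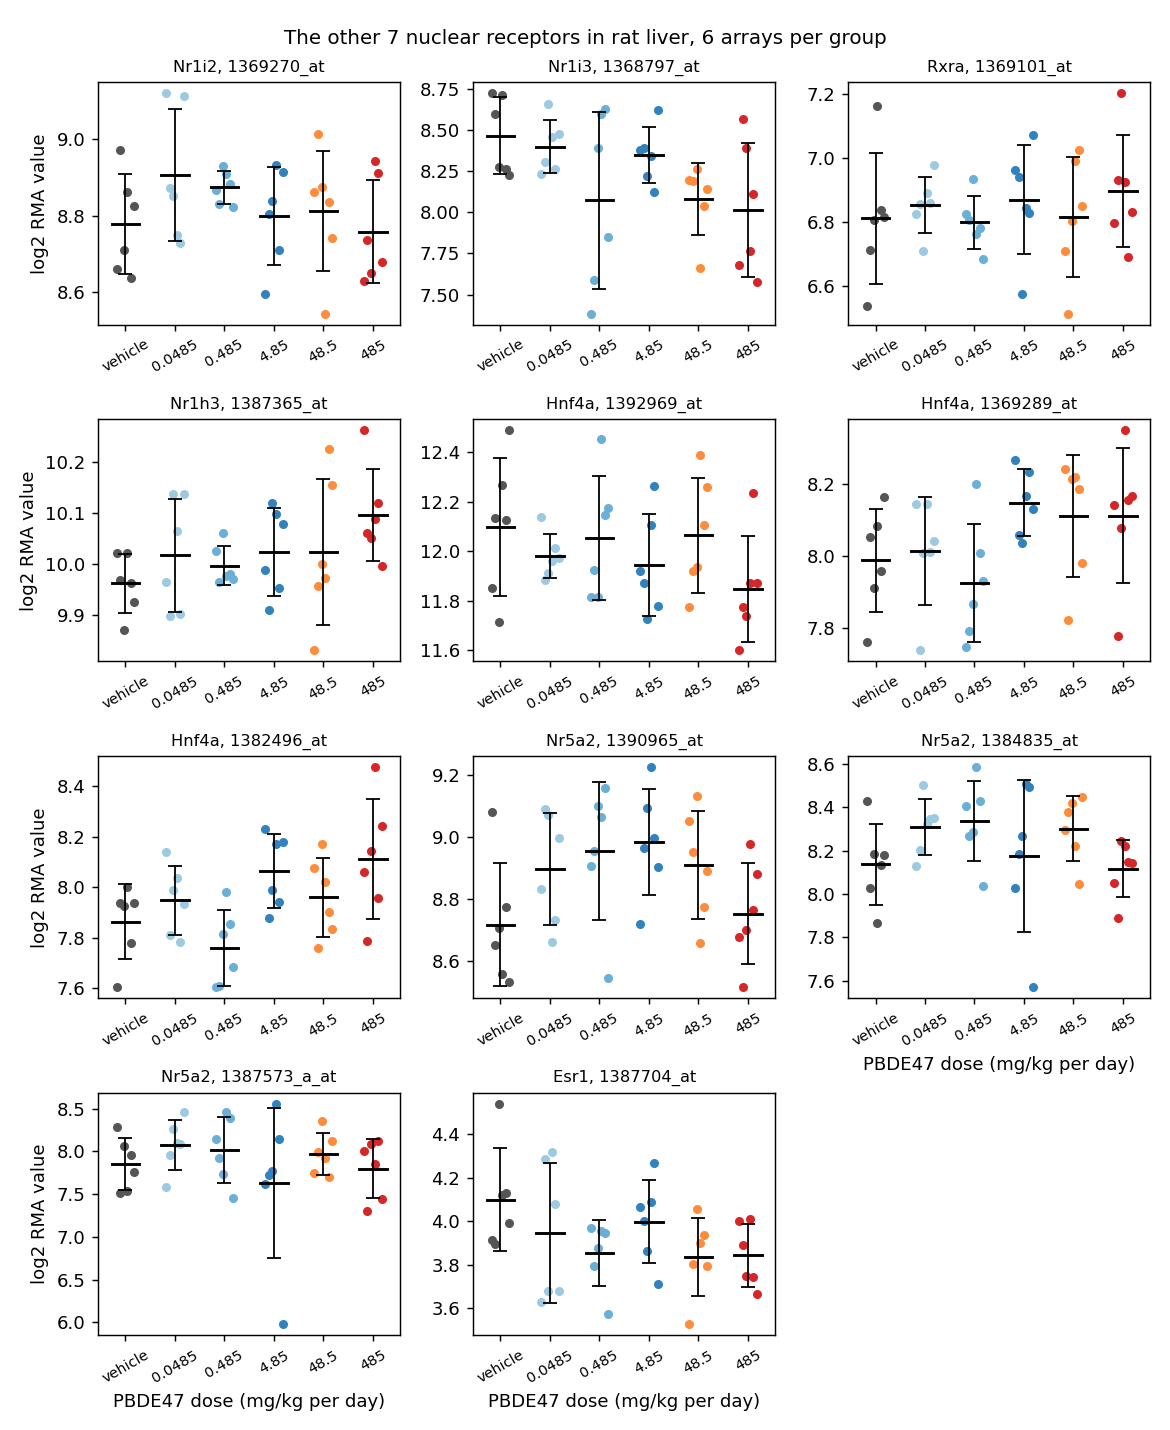
Log2 RMA values (y axes, each with its own range) of the other 7 receptors by PBDE47 dose in mg/kg per day (x axes), 1 point per array, 6 per group, with group means and 1 SD; Hnf4a and Nr5a2 have a panel for each of their 3 probe sets. The dosed groups overlap the vehicle group in every panel, Nr1i3 spreads from 7.38 to 8.72, and 1 point of Nr5a2 at 4.85 mg/kg lies at 5.98.

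**Figure D4:**
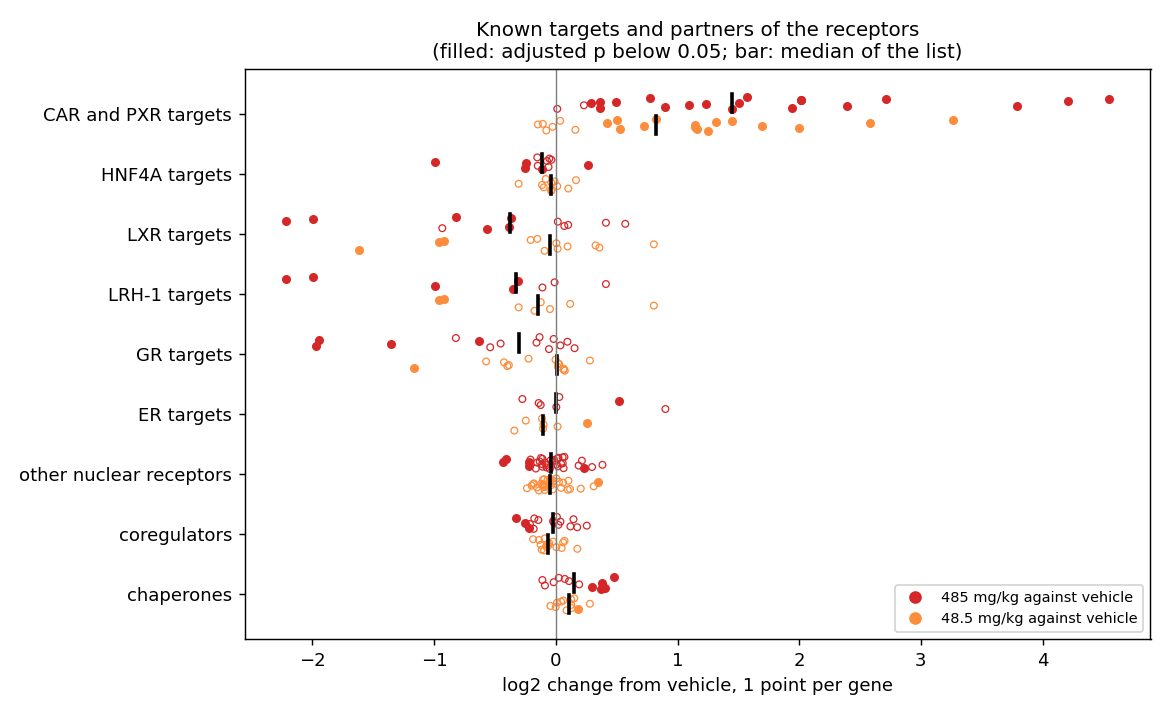
Log2 change from vehicle (x axis) of the measured genes of each target or partner list (rows), 1 point per gene, at 485 mg/kg (red, upper) and 48.5 mg/kg (orange, lower), with filled points called at an adjusted p below 0.05 and a bar at the list's median. The CAR and PXR targets lie to the right, with medians of 1.45 and 0.83, while the medians of the LXR and glucocorticoid receptor targets at 485 mg/kg are -0.38 and -0.31.

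Other members of the receptor family were counted in the same way. Of 33 further nuclear receptors measured, 4 were called lower and 1 higher at 485 mg/kg, beside 20.9% of named genes in either direction. That count is no result about them as a set. Nr2f2, the orphan receptor COUP-TFII, averaged 9.67 ± 0.23 at 485 mg/kg and 10.10 ± 0.14 in vehicle (SD, n = 6 each; -0.43 ± 0.09 SE, adjusted p = 0.000443). Nr1d1, the clock repressor REV-ERB alpha, changed by -0.41 ± 0.11 SE (adjusted p = 0.0102). Rara and Rxrg, receptors of retinoids, changed by -0.22 ± 0.07 SE (adjusted p = 0.0294) and 0.23 ± 0.07 SE (adjusted p = 0.0313). The Rara call was lost without vehicle replicate 1, 2 or 5 or 485 mg/kg replicate 1, 2, 3 or 4 (adjusted p = 0.0574 to 0.107), with quantile normalization (0.0580) and in the fit of 12 arrays (0.119). The Rxrg call was lost without vehicle replicate 1, 4 or 6 or 485 mg/kg replicate 1, 4 or 6 (adjusted p = 0.0548 to 0.102) and in the fit of 12 arrays (0.116). Nr2c1, the testicular receptor TR2, was the only one of the 33 called at 48.5 mg/kg, where 5.11% of named genes were called in either direction. Nr2c1 was higher by 0.35 ± 0.10 SE (adjusted p = 0.0348). Without vehicle replicate 1, 2, 3 or 5 or 48.5 mg/kg replicate 2, 3, 5 or 6 its adjusted p was 0.0544 to 0.106, and in the fit of 12 arrays 0.0545. Among 16 coregulators 3 were called lower and none higher at 485 mg/kg, and none was called at 48.5 mg/kg. At 485 mg/kg 9.43% of named genes were called lower and 20.9% in either direction, so this count is no result about the list. The 3 were Crebbp, an acetyltransferase coactivator (-0.33 ± 0.08 SE, adjusted p = 0.00545), Ncoa4 (-0.26 ± 0.06 SE, adjusted p = 0.00122) and Smarcd1, a chromatin remodelling subunit (-0.22 ± 0.06 SE, adjusted p = 0.0125).

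Likeness over the 36 arrays was measured by Pearson's r between the brightest probe set of a receptor and each other named gene, as a description. All arrays share their platform and normalization, and in Nr3c1 the points also share the shift with dose. The gene most like Nr1i3 was Pcp4l1, with r = 0.80 over 36 arrays and 0.76 within groups, and it is also the protein-coding gene next to Nr1i3 in the RefSeq gene order. Without the 2 arrays farthest from the median of Nr1i3, r was 0.71 over 34 arrays. The neighbour on the other side, Tomm40l, had r = -0.15. Likeness to a neighbour was not particular to Nr1i3: Hnf4a had r = 0.70 with Ttpal (0.67 within groups) and Esr1 0.44 with Syne1. The remaining neighbours of the receptors had r of 0.142 or below. Pcp4l1 itself ran from 5.70 over a median of 6.41 to 8.31 at 485 mg/kg, against 7.62, 8.38 and 9.24 in vehicle (-1.78 ± 0.40 SE, adjusted p = 0.00149). Its second probe set, 1390912_at, changed by -1.53 ± 0.34 SE (adjusted p = 0.00123).

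**Figure D5:**
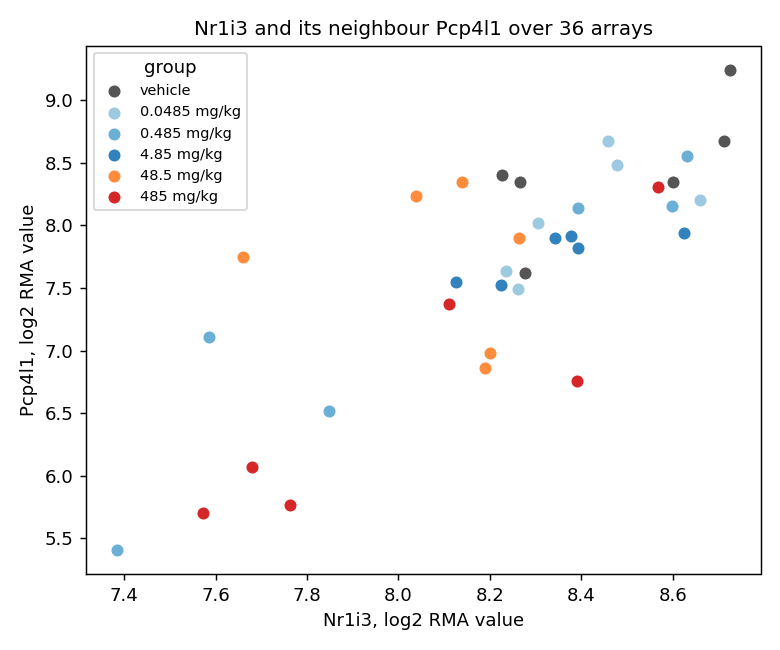
Log2 RMA value of Pcp4l1 (y axis) against that of Nr1i3 (x axis), 1 point per array, 36 in all, coloured by dose group. The 2 genes rise together over the arrays (r = 0.80), and the lowest array in both, 7.38 and 5.40, is of 0.485 mg/kg, not of the top dose.

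The genes most like Nr3c1 were Rnf144b (r = 0.79) and Rnf2 (0.77), ring finger proteins, and Tgfbr1 (0.77), a receptor of transforming growth factor beta. Within groups these correlations were 0.62, 0.56 and 0.51. At 485 mg/kg the log2 changes of Rnf144b, Rnf2 and Tgfbr1 were -0.68, -0.41 and -0.49, all called lower, beside 9.43% of named genes. They were picked by an r that includes the shift of Nr3c1 with dose, so their falls are no separate result. For the other receptors the closest genes were Slc37a4, the glucose-6-phosphate transporter, for Nr1i2 (r = 0.69), Vmac for Rxra (0.58), Ppp1ca, a phosphatase subunit, for Nr1h3 (0.78), Scyl2 for Hnf4a (0.83), Ppfibp2 for Nr5a2 (0.80) and Kdm3a, a histone demethylase, for Esr1 (0.76). Of these only Kdm3a was called at 485 mg/kg (-0.43, adjusted p = 0.00222).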

How the data were processed

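The unit is log2: the authors deposited RMA values of every probe set on every array, made with the affy package, per the submitters' processing notes. Versions, chip definition and genome build are not given in the sources used here. RMA quantile normalizes probes between arrays, which ties each value to a common distribution. Of 31099 probe sets, 57 controls were left out, leaving 31042, all of which were tested.

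A one-way linear model over 36 arrays was fitted in limma 3.58.1 (R 4.3.3; 30 residual and 5.26 prior degrees of freedom), with 6 two-sided contrasts and a moderated F test over 5 doses, and Benjamini-Hochberg adjustment over all probe sets. The procedure was tested on simulated data. Arrays have no depth, so their number limits the precision. Names come from the platform annotation, where 20826 probe sets have 1 gene, 436 several and 9780 none; other genes are represented by their probe set with the highest mean.

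The members and gene lists were chosen with earlier results of these data known. All member probe sets are reported. From each list up to 4 called genes with the largest change at 485 mg/kg and 2 at 48.5 mg/kg are named. For each receptor up to 3 genes of highest correlation are named, plus the neighbours of Nr1i3. Single neighbours of Hnf4a, Esr1 and Nr3c1 were added after their values were seen. Alternatives were a replicate block, quantile normalization between arrays, median centring, only the 15521 brighter probe sets, an ordinary (unmoderated) test, trend and robust eBayes, array quality weights, the 12 arrays of a pair alone, averaged probe sets of a gene, each array left out, and, added after its values were seen, a fit without replicate 6 at 4.85 mg/kg. RNA quality was checked by exact permutation tests on 3' minus 5' control probe sets. Promoter sequences are from RefSeq on GRCr8.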

Additional observations from a re-analysis of the deposited data

Results flagged for a closer look

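In 4 of the 78 receptor probe set and dose group combinations, 1 array lay far outside the other 5 by Dixon's criterion, and chance marks about 1 group in 20. The Nr1i3 value of 48.5 mg/kg replicate 4 was 7.66, below the next lowest of 8.04. The Hnf4a probe set 1369289_at stood at 7.74 in 0.0485 mg/kg replicate 2, with the next at 8.01. The Nr5a2 probe set 1387573_a_at stood at 5.98 in 4.85 mg/kg replicate 6, with the next at 7.62. Esr1 stood at 4.54 in vehicle replicate 3, with the next at 4.13, both dim values.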

How the results depend on the processing

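The number of receptor probe sets called at 485 mg/kg was 2 in the fit reported and 2 to 4 with an array left out, the highest without 485 mg/kg replicate 2. At 48.5 mg/kg it was 1, then 1 to 2 with an array left out (2 without vehicle replicate 1, vehicle replicate 2 or 48.5 mg/kg replicate 4) and 0 in the fit of 12 arrays. The F test called 1, and 2 with the replicate block, quantile normalization, brighter probe sets only, trend and robust eBayes, or array quality weights; with an array left out it called 1 to 2, and 2 for 18 of 36 omissions. The cause was not tested. At 4.85, 0.485 and 0.0485 mg/kg and for 485 against 48.5 mg/kg the count stayed 0, also with an array left out (0 to 0). Of 738 receptor values under the other alternatives 733 kept their side of the threshold, 1 lost its call and 4 gained one, and of 936 with an array left out 929 kept it and 7 gained a call; no called value changed sign. Named list genes lost their call in 25 of 377 and, with an array left out, in 71 of 504 values. The labels give no pairing by replicate number, and the arrays were treated as sharing only a number: 19 of 90 same-number pairs correlated above 0.1 (median r 0.01), against 74 of 450 pairs of different numbers. As a hint from the data, 12 of 36 arrays correlated best with their own number, where same-number pairs were 90 and pairs of different numbers 450. Whether that exceeds what numbering alone would give was not tested. The replicate block gave 3 calls at 485 mg/kg. The brighter filter left out 2 receptor probe sets, Esr1 and the second of Nr3c1, whose dim signal limits them.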

Other observations

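Hepatocyte transcription factors outside the nuclear receptor family gave calls in both directions. Of 16 measured, 5 were called lower and 2 higher at 485 mg/kg, beside 20.9% of named genes in either direction. The lower count ran from 2 to 5 over the alternatives, with 2 when 485 mg/kg replicate 4 was left out and 3 without 485 mg/kg replicate 2 or 3 or vehicle replicate 2, 3, 4 or 6, and the higher count ran from 1 to 3. Foxa3, a forkhead factor, averaged 7.15 ± 0.43 at 485 mg/kg and 8.50 ± 0.41 in vehicle (SD, n = 6 each), and its groups did not overlap (log2 change -1.35 ± 0.22 SE, limma adjusted p = 1.57e-05). Onecut1, the factor HNF6, ran from 6.91 to 9.71 at 485 mg/kg, against 9.69 to 11.34 in vehicle (-2.18 ± 0.64 SE, adjusted p = 0.0159); without 485 mg/kg replicate 4 it was not called (adjusted p = 0.0528). Ahr, the dioxin receptor, which is no nuclear receptor, averaged 6.16 ± 0.32 at 485 mg/kg and 5.40 ± 0.29 in vehicle (0.76 ± 0.16 SE, adjusted p = 0.000541), and at 48.5 mg/kg it rose by 0.74 ± 0.16 SE (adjusted p = 0.00392). Its vehicle values ran from 4.84 to 5.65, in part below the dim limit of 5.31, so the size of these changes is not exact.

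Among the genes beside Nr3c1 in the RefSeq gene order, Fgf1, a fibroblast growth factor, ran against it over the 36 arrays (r = -0.62, and -0.30 within groups, points that share the shift with dose). It was named after its values were seen, and it changed by 0.65 at 485 mg/kg (adjusted p = 2.31e-05). As a measure of RNA quality, the Gapdh control probe sets gave 3' minus 5' differences that ran from -0.13 to -0.04 at 485 mg/kg and from -0.14 to 0.01 in vehicle (exact permutation p = 0.106, two-sided, n = 6 each). At 48.5 mg/kg it ran from -0.22 to -0.03 (difference from vehicle -0.086, exact permutation p = 0.0541), and its part in the calls at either dose was not tested. For Actb it ran from 1.06 to 1.33 at 485 mg/kg and from 1.13 to 1.46 in vehicle (exact permutation p = 0.307), and at 48.5 mg/kg from 1.01 to 1.38 (exact permutation p = 0.214).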
